A study of Mus musculus with 6 samples.

Results

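The genes described here are p53 (Trp53) and 9 genes that regulate it or answer to it, namely Mdm2, Mdm4, Ppm1d, Ccng1, Trp53inp1, Zmat3, Btg2, Psrc1 and Gtse1. They were taken by symbol from the deposited gene tables, where each of the 10 names matched 1 of the 47729 genes listed, and all 10 passed the minimum level for testing. The libraries came from activated CD8+ T cells of mouse spleen. In the first group the cells had been treated with 2 µM blebbistatin, an inhibitor of the myosin II motor, for 24 h (3 libraries). In the second they had received a vehicle that the labels do not name, also for 24 h (3 libraries). The labels give no strain, genotype, age or sex of the mice, no way of purifying or activating the cells, and no statement that replicates came from separate animals or cultures, so p-values measure only the spread between these libraries, which may be technical.

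The p53 protein is a transcription factor that answers DNA damage and other stress, and in most cells its amount is set by degradation more than by its mRNA. MDM2 is the ubiquitin ligase that marks p53 for degradation, MDM4 is its close relative that binds and silences p53, and the phosphatase PPM1D (also called WIP1) removes activating phosphates from p53 and from the kinases upstream of it. Because Mdm2, Ppm1d, Ccng1, Trp53inp1, Zmat3 and Btg2 are themselves switched on by p53, their mRNA is commonly read as a gauge of p53 activity, and several of them close a feedback loop on p53.

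The promoters in which a search by consensus found p53 recognition letters are shown first. RefSeq windows of the 250 bases before the transcription start (GRCm38.p6) were given for 8 of the 10 genes, and none was given for Trp53inp1 and Zmat3. The p53 response element, searched by its consensus, is a pair of decamers of 10 bases each. The letters in capitals mark exact matches to 1 decamer or, in Ccng1, the pair with 1 mismatch among its 20 bases.
Ccng1 promoter, chr11:40755287-40755536, minus strand: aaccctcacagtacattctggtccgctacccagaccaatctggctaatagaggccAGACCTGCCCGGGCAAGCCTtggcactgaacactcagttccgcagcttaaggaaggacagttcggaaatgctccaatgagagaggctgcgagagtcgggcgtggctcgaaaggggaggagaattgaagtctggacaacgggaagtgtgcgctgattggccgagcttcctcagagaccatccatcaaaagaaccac
Mdm2 promoter, chr10:117710759-117711008, minus strand: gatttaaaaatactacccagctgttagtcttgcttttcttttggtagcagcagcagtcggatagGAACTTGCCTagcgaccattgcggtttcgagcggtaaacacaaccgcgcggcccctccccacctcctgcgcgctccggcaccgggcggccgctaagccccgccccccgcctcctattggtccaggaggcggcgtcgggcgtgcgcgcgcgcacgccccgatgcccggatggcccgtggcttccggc
Ppm1d promoter, chr11:85311004-85311253, plus strand: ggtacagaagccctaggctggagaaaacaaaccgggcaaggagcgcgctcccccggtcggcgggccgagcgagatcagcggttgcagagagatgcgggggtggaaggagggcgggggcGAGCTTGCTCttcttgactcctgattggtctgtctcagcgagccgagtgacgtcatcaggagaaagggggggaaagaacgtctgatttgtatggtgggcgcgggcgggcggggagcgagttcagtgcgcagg
Trp53 promoter, chr11:69580109-69580358, plus strand: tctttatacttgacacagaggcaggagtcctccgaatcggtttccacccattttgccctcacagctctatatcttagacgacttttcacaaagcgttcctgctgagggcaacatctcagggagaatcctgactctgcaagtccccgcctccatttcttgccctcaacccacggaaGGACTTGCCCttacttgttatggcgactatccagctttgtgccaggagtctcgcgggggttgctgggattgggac

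Of these 4 genes Ccng1 and Mdm2 rose with blebbistatin, and Ppm1d and Trp53 did not pass. Among the genes whose windows held no decamer, Mdm4, Btg2 and Psrc1 rose and Gtse1 did not pass. Trp53inp1 and Zmat3, for which no window was given, rose too. The promoters are printed because p53 recognition letters are what the known targets are thought to share, and a match is a description of the letters, not a measured binding site. A full site with at most 2 mismatches and no spacer was found in 0.271% of all 32851 RefSeq windows of this length, and among these genes in Ccng1 alone, from 195 to 176 bases before the start. An exact decamer was found in 7.13% of all windows and in 4 of the 8 genes with a window, which are those printed. Because the consensus reads the same on both strands, a single search covered both. Btg2 and Ppm1d each held a cyclic AMP response element, TGACGTCA, which was present in 1.55% of all windows. The CCAAT box, searched as CCAAT on both strands, was found in 33.8% of all windows and in 7 of the 8 genes, and was not found in Mdm4. One of the windows of Psrc1 held TTCGAA, a form of the cell cycle homology region that is common in genes of G2 and mitosis, 30 to 25 bases before the start, a word found in 1.34% of windows, while its usual form TTTGAA was found in 16.0% of windows and in none of these genes. The windows do not reach the intron of Mdm2 where its best known p53 sites lie.

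Across the 10 genes, 7 rose with blebbistatin, none fell, and 3 did not pass. Trp53inp1 rose most, with a log2 fold change of 1.13 on the log2(TPM + 1) scale, followed by Btg2 (0.68), Zmat3 (0.60), Ccng1 (0.56), Psrc1 (0.55), Mdm2 (0.48) and Mdm4 (0.31). Gtse1, Ppm1d and Trp53 itself did not pass, and the mean Trp53 level in blebbistatin and vehicle libraries differed by less than the spread between replicates. The test was limma on log2(TPM + 1), blebbistatin minus vehicle, with the Benjamini-Hochberg adjusted p taken over all 13372 genes tested and called under 0.05. Over all genes tested 1.82% were called, 1.40% higher and 0.426% lower, and the median log2 fold change was 0.03, against 0.52 over the 10 genes. Levels in all 3 blebbistatin libraries were above all 3 vehicle libraries in 9 of the 10 genes, where 18.0% of all genes tested showed this and 31.0% had groups apart in either direction. Before adjustment 9 of the 10 had p under 0.05, where 22.9% of all genes tested did. Leaving out blebbistatin 3 or vehicle 3 left none of the 10 called, leaving out vehicle 1 or 2 left 1, and leaving out blebbistatin 1 or 2 left 6 or 7. The 10 genes were put together with results of these data known, so these counts describe them and are not a test of the group.

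**Figure D1:**
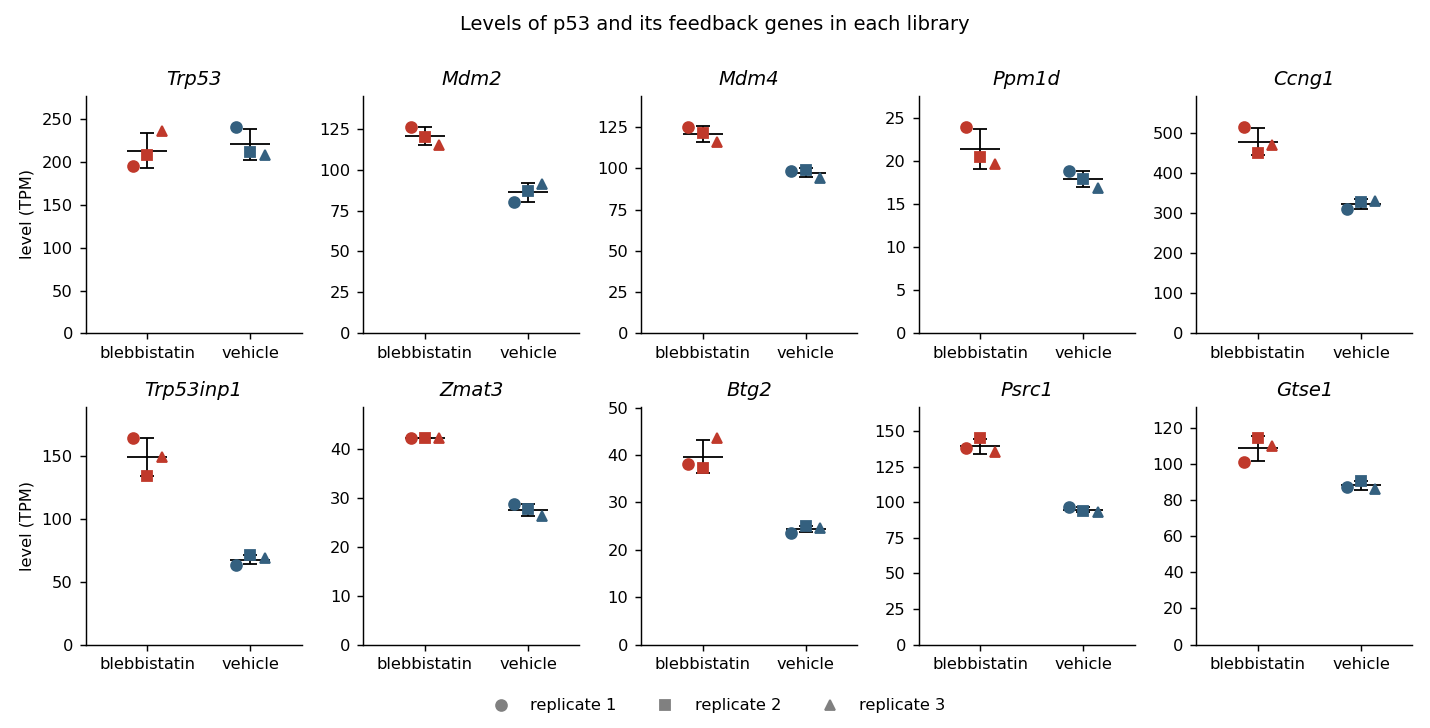
Level in TPM (vertical axes, each from 0) of each of the 10 genes in the 3 blebbistatin libraries (red, left) and the 3 vehicle libraries (blue, right), with bars for the mean ± SD and symbols for the replicate number. The groups are apart in every gene except Trp53, where 196 to 236 TPM with blebbistatin overlap 209 to 242 TPM with vehicle.

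Between 18466219 and 19929460 fragments per library were implied by the coverage, 19482273 to 19849612 in blebbistatin libraries and 18466219 to 19929460 in vehicle libraries. At that depth 1 TPM of a transcript rests on 8.86 to 9.45 fragments per kb, which would give 2742 to 4714 fragments per kb for Ccng1, the highest of the 10 genes, and 159 to 219 for Ppm1d, the lowest. The number for Ppm1d is uncertain, since its ratio of deposited coverage to FPKM was 0.91 to 0.98, against 5.54 to 5.98 in Ccng1, Btg2 and Gtse1, and the other 6 genes lay between these and share the doubt. How coverage was averaged over transcripts is not given in the sources used here. On the first principal component of all tested genes blebbistatin 1, 2 and 3 lay at -30.5, -0.23 and -14.5. The vehicle libraries lay between 13.4 and 16.4, so that blebbistatin 2 lay nearest to vehicle. Over the same genes blebbistatin 2 had a correlation of 0.988 with each vehicle library, against 0.983 with blebbistatin 1 and 0.989 with blebbistatin 3. The 10 CD8 T cell markers summed to 6092 to 6321 TPM with blebbistatin, against 6333 to 6426 TPM with vehicle, so the sum was lower in every blebbistatin library. Of these 10, 5 had a log2 fold change above 0 and 5 below 0. Thy1 fell (log2 fold change -0.28, lost without blebbistatin 3 or any vehicle library), and Cd8a stood at 429 ± 3.49 TPM with blebbistatin and 412 ± 3.00 TPM with vehicle (mean ± SD, n = 3 each, here and below). Cd4, Ncr1, Csf1r and Adgre1, which define CD4 T cells, NK cells and macrophages, were each below 1 TPM in all libraries. Other markers on the same lists were not: Cd68, a macrophage marker, stood at 9.96, 9.12 and 8.67 TPM with blebbistatin, against 6.33, 6.98 and 5.13 TPM with vehicle (log2 fold change 0.53, limma adjusted p = 0.0843), with no overlap. Zbtb7b, a factor of CD4 T cells, stood at 14.8 ± 2.30 TPM with blebbistatin and 13.7 ± 0.302 TPM with vehicle, with overlap.

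Trp53 encodes p53 and lies on chromosome 11 from 69580359 to 69591873 (GRCm38, plus strand). It stood at 196, 208 and 236 TPM with blebbistatin, against 242, 212 and 209 TPM with vehicle. The groups overlapped, with the lowest value in blebbistatin 1 and the highest in vehicle 1. The log2 fold change was -0.05 (SE 0.09, limma adjusted p = 0.757), and it was 0.01 without blebbistatin 1 and 0.02 without vehicle 1. Its mRNA was the second highest of the 10 in both groups, and p53 protein was not measured.

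Mdm2, the ligase that limits p53, lies on chromosome 10 from 117688888 to 117710758 on the minus strand. It stood at 126, 119.8 and 115 TPM with blebbistatin, against 80.0, 86.7 and 91.4 TPM with vehicle. Every blebbistatin library was above the highest vehicle library, and the log2 fold change was 0.48 (SE 0.07, limma adjusted p = 0.0274). This call was lost when any library except blebbistatin 2 was left out, with a limma adjusted p of 0.0514 without blebbistatin 1, 0.106 without blebbistatin 3, and 0.107, 0.116 and 0.0828 without vehicle 1, 2 and 3. It was also lost without the mean-variance trend (limma adjusted p = 0.053) and with no minimum level (0.0623).

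Mdm4, which binds p53 without being a strong ligase, lies on chromosome 1 from 132959484 to 133030561 on the minus strand. It stood at 125, 121 and 116 TPM with blebbistatin, against 98.6, 99.2 and 94.0 TPM with vehicle. The groups did not overlap, and the log2 fold change of 0.31 (SE 0.05, limma adjusted p = 0.0457) was the smallest among the 7 genes that passed. It lay close to the threshold and was also lost with no minimum level (limma adjusted p = 0.0738) and with no trend (0.0875). It had a log2 fold change of 0.15 (limma adjusted p = 0.2) after correction for transcript length and GC content and 0.27 (0.06) with median-ratio scaling. Leaving out any library except blebbistatin 2 ended the call too, with limma adjusted p of 0.0672 and 0.141 without blebbistatin 1 and 3 and 0.169, 0.15 and 0.166 without vehicle 1, 2 and 3.

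Ppm1d, the phosphatase that turns p53 signalling off, lies on chromosome 11 from 85311244 to 85347066 on the plus strand and had the lowest level of the 10 genes in both groups. It stood at 24.0, 20.5 and 19.7 TPM with blebbistatin, against 18.8, 18.0 and 16.9 TPM with vehicle. The groups did not overlap, but the lowest blebbistatin library was close to the highest vehicle library. The log2 fold change of 0.24 (SE 0.09) did not pass (limma adjusted p = 0.189).

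Ccng1 encodes cyclin G1, which brings a phosphatase to MDM2, and lies on chromosome 11 from 40748552 to 40755311 on the minus strand, with the paired decamers in its promoter. It stood at 516, 449 and 469.7 TPM with blebbistatin, against 309.6, 328 and 330.3 TPM with vehicle, the highest level of the 10 genes in both groups. The lowest blebbistatin library was well above the highest vehicle library. The log2 fold change was 0.56 (SE 0.06, limma adjusted p = 0.0168). The call was lost without blebbistatin 3 (limma adjusted p = 0.0888), without vehicle 1, 2 or 3 (0.0962, 0.0716 and 0.0782), and with no minimum level (0.0518).

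Trp53inp1 encodes a stress protein that binds kinases of p53 and takes part in cell death and autophagy, on chromosome 4 from 11156431 to 11174379 on the plus strand. It stood at 164, 134 and 149 TPM with blebbistatin, against 63.2, 70.8 and 68.5 TPM with vehicle. The lowest blebbistatin library was above the highest vehicle library, and the log2 fold change of 1.13 (SE 0.09, limma adjusted p = 0.0079) was the largest of the 10 and stood at rank 27 from the top among the 13372 genes tested. Among the 10 levels it stood at rank 3 with blebbistatin and rank 7 with vehicle. Leaving out blebbistatin 3 or vehicle 3 ended the call (limma adjusted p = 0.0591 and 0.0502), while it held without each of the other libraries.

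Zmat3 encodes an RNA-binding zinc finger protein, on chromosome 3 from 32334792 to 32366014 on the minus strand. It stood at 42.2, 42.3 and 42.2 TPM with blebbistatin, against 28.7, 27.7 and 26.3 TPM with vehicle. The blebbistatin libraries were almost equal, with an SD of 0.0661 TPM around 42.3 TPM, while the vehicle libraries had 1.23 TPM around 27.6 TPM. The log2 fold change was 0.60 (SE 0.06, limma adjusted p = 0.0156). Without blebbistatin 3 or vehicle 1, 2 or 3 the call was lost (limma adjusted p = 0.0888, 0.0631, 0.0666 and 0.0718).

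Btg2 encodes an antiproliferative protein that recruits the enzymes removing the poly(A) tails of mRNA, on chromosome 1 from 134075170 to 134079120 on the minus strand. It stood at 38.2, 37.2 and 43.7 TPM with blebbistatin, against 23.6, 24.9 and 24.6 TPM with vehicle. The blebbistatin libraries were spread more widely than the vehicle libraries, with blebbistatin 3 the highest. The log2 fold change was 0.68 (SE 0.08, limma adjusted p = 0.0179). The call was lost without blebbistatin 3 (limma adjusted p = 0.0888) and without vehicle 1, 2 or 3 (0.101, 0.0716 and 0.0828).

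Psrc1 and Gtse1 encode microtubule proteins of dividing cells. Psrc1, a spindle protein first known in mouse as a gene induced by p53, lies on chromosome 3 from 108383839 to 108388231 on the plus strand. It stood at 138, 145 and 135 TPM with blebbistatin, against 96.6, 94.1 and 93.3 TPM with vehicle. Among vehicle libraries it was the steadiest of the 10 genes, with a coefficient of variation of 1.8%, and the log2 fold change was 0.55 (SE 0.05, limma adjusted p = 0.0149). The call was lost without blebbistatin 3 (limma adjusted p = 0.0888) and without vehicle 1, 2 or 3 (0.0631, 0.0585 and 0.0665).

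Gtse1, which in human cells carries p53 out of the nucleus in G2, lies on chromosome 15 from 85859707 to 85876572 on the plus strand. It stood at 101, 115 and 110.5 TPM with blebbistatin, against 87.6, 91.0 and 86.4 TPM with vehicle. The groups did not overlap, and the log2 fold change of 0.30 (SE 0.06) did not pass (limma adjusted p = 0.0676). It passed after correction for length and GC content (0.35, limma adjusted p = 0.0125) and without blebbistatin 1 (0.35, limma adjusted p = 0.0461). Psrc1 and Gtse1 were set beside 28 other genes of G2 and mitosis, whose log2 fold changes lay between -0.38 and 0.16 with a median of -0.04. Of these 28, none rose, where 1.40% of all genes tested did, and 1 fell, where 0.426% did. With shares that low, these counts say little about the list. The log2 fold change was above 0 in 8 and below 0 in 20, where 55.1% of all genes tested were above 0. Before adjustment 7 of the 28 had a limma p under 0.05, where 22.9% of all genes tested did. In 1 of the 28 every blebbistatin library was above every vehicle library, where 18.0% of all genes tested showed this. The gene that fell was Cdca8, a subunit of the chromosomal passenger complex. It stood at 137 ± 6.34 TPM with blebbistatin, against 169 ± 2.94 TPM with vehicle. That call held without blebbistatin 2 (limma adjusted p = 0.0318) and was lost when any other library was left out, up to 0.17 without vehicle 1.

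**Figure D2:**
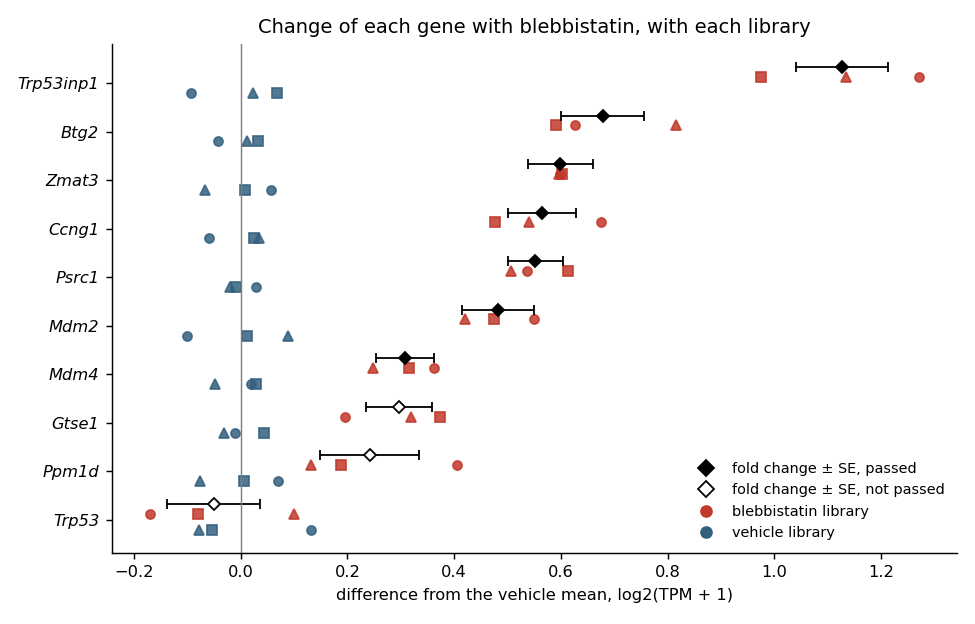
Difference of each library from the vehicle mean on the log2(TPM + 1) scale (horizontal axis) for each gene (vertical axis), with blebbistatin libraries in red, vehicle libraries in blue and the fitted log2 fold change ± SE as a diamond, filled where the adjusted p was under 0.05. Trp53inp1 stands apart at 1.13, the next 6 filled diamonds lie between 0.31 and 0.68, and the vehicle libraries lie close to 0.

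Blebbistatin 2, the library nearest to vehicle over all genes, lay between the others in its median difference over these genes. The median difference from the vehicle mean over the 10 genes was 0.54 in blebbistatin 1, 0.48 in blebbistatin 2 and 0.46 in blebbistatin 3 on the log2(TPM + 1) scale. In each of the 3 libraries 9 of the 10 genes were above all vehicle libraries. Blebbistatin 1 was the highest of the 3 in 5 genes, blebbistatin 2 in 3 genes and blebbistatin 3 in 2 genes. The lowest of the 3 was blebbistatin 1 in 2 genes, blebbistatin 2 in 3 genes (Trp53inp1, Ccng1 and Btg2) and blebbistatin 3 in 5 genes.

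The order of levels in TPM, which is corrected for length, also differed between the groups. With blebbistatin it ran from Ccng1 over Trp53, Trp53inp1, Psrc1, Mdm4, Mdm2, Gtse1, Zmat3 and Btg2 to Ppm1d. In that order the libraries of Trp53inp1 and Psrc1, of Mdm4 and Mdm2, and of Zmat3 and Btg2 overlapped, so these neighbours did not differ beyond their spread. With vehicle the order was Ccng1, Trp53, Mdm4, Psrc1, Gtse1, Mdm2, Trp53inp1, Zmat3, Btg2 and Ppm1d, with overlap between Mdm4 and Psrc1 and between Gtse1 and Mdm2.

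Ratios within a library are not changed when a library is multiplied by a factor, but a correction that differs between genes can change them. The length and GC correction was not applied to the ratios. With it the log2 fold change was 0.42 for Mdm2, 0.15 for Mdm4 and -0.03 for Trp53. The ratio of Mdm2 to Mdm4 was 1.01, 0.988 and 0.996 with blebbistatin, against 0.811, 0.873 and 0.972 with vehicle. Blebbistatin libraries were all close to equal amounts of the pair, and the vehicle libraries were lower and more spread out, with vehicle 3 near the blebbistatin values. The ratio of Mdm2 to Trp53 was 0.644, 0.575 and 0.488 with blebbistatin, against 0.331, 0.408 and 0.438 with vehicle, again with no overlap. The differences in mean log2 ratio were 0.18 for Mdm2 to Mdm4 and 0.54 for Mdm2 to Trp53, and each had p = 0.1 in a two-sided exact permutation test, the smallest p that this test can give with 3 against 3 libraries, so that it cannot reach 0.05 for either of the 2 ratios. Without vehicle 1 the log2 difference of Mdm2 to Mdm4 was 0.11.

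**Figure D3:**
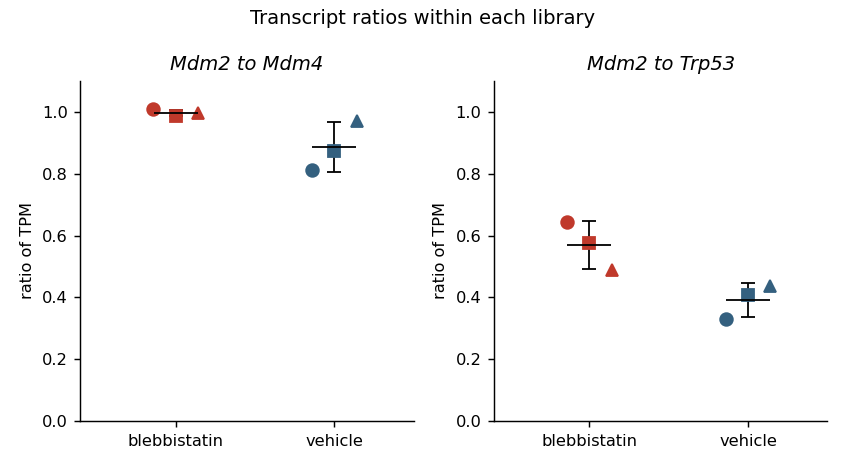
Ratio of TPM within each library for Mdm2 to Mdm4 and for Mdm2 to Trp53 (vertical axes from 0), blebbistatin in red on the left and vehicle in blue on the right, with the mean ± SD and a symbol for each replicate. Both ratios are higher in every blebbistatin library, with means of 0.997 and 0.886 for Mdm2 to Mdm4 and of 0.569 and 0.392 for Mdm2 to Trp53, blebbistatin before vehicle.

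Of 38 further targets of p53 listed, 36 were tested, 8 rose (1.40% of all genes tested did), none fell and 28 did not pass, with a median log2 fold change of 0.22 against 0.03 over all genes. Those that rose included Plk2, a polo-like kinase, at 18.6 ± 0.662 TPM with blebbistatin and 7.51 ± 0.362 TPM with vehicle, and Ercc5, a nuclease of excision repair, at 32.9 ± 0.694 TPM with blebbistatin and 17.6 ± 0.549 TPM with vehicle. Fas (log2 fold change 0.86), a death receptor, Perp (0.74), a membrane protein of cell death, and Ei24 (0.57), an endoplasmic reticulum protein, rose as well. Among the 6 fits that left out 1 library, Plk2 lost its call only without blebbistatin 3 (limma adjusted p = 0.0509), as was Ercc5 (0.0591), while Fas, Perp and Ei24 were lost without blebbistatin 3 (0.0888, 0.0888 and 0.117) and without each vehicle library. Cdkn1a, the inhibitor of cyclin-dependent kinases that mediates p53 arrest, stood at 369 ± 33.2 TPM with blebbistatin and 300.4 ± 9.61 TPM with vehicle and did not pass (limma adjusted p = 0.092). Bax, an effector of cell death, stood at 346 ± 39.7 TPM with blebbistatin and 345 ± 12.5 TPM with vehicle. The list holds 9 targets below 0, the lowest of them Plk3 (log2 fold change -0.47, limma adjusted p = 0.0528). Without blebbistatin 1, 2 and 3 the number of these targets that were higher was 7, 11 and 0, and it was 2 without each vehicle library in turn. Without blebbistatin 2, 2 targets were lower as well. Cdkn1a passed without blebbistatin 1 (log2 fold change 0.36, limma adjusted p = 0.0491) and in none of the other 5 such fits.

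**Figure D4:**
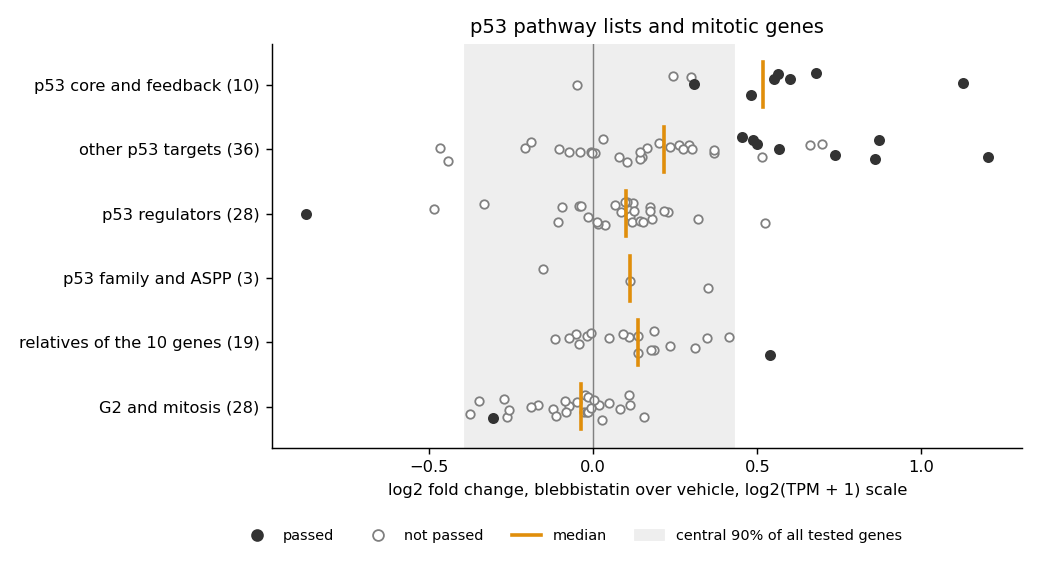
Log2 fold change of blebbistatin over vehicle (horizontal axis) for each tested gene of 6 lists (vertical axis), filled where the adjusted p was under 0.05, with the list median as a bar and the central 90% of all tested genes, -0.39 to 0.43, in grey. The 10 genes have a median of 0.52, the other p53 targets 0.22 and the genes of G2 and mitosis -0.04.

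Genes that act on p53 or MDM2 were listed as well. Of 30 such regulators listed 28 were tested. None rose and Cdkn2a fell, where 1.40% and 0.426% of all genes tested did, and 27 did not pass. With shares that low, a count of none among 28 says little about these genes. Their median log2 fold change was 0.10. Cdkn2a, whose locus encodes ARF, the inhibitor of MDM2, and the kinase inhibitor INK4A, stood at 2.75, 3.17 and 2.37 TPM with blebbistatin, against 6.80, 5.81 and 5.13 TPM with vehicle. The groups were apart, and the log2 fold change was -0.87 (SE 0.14, limma adjusted p = 0.0368), with the 2 products of the locus summed in the deposited value. That call held without blebbistatin 2 (limma adjusted p = 0.0233) and was lost when any other library was left out, up to 0.15 without vehicle 1. Before adjustment 8 of the 28 regulators had a limma p under 0.05, where 22.9% of all genes tested did. In 6 of the 28 every blebbistatin library was above every vehicle library, where 18.0% of all genes tested showed this. Among regulators that did not pass, Pml had the highest log2 fold change (0.52, limma adjusted p = 0.0853) and Stub1 the lowest (-0.48, limma adjusted p = 0.102). The damage kinases Atm (0.17), Atr (0.10), Chek1 (0.01) and Chek2 (0.10) did not pass either. The paralogs Trp63 and Trp73 were below the minimum level of 1 TPM, and none of the 3 other tested relatives and partners of p53 passed, the most abundant being Trp53bp2 at 16.4 TPM with blebbistatin and 18.4 TPM with vehicle.

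Sequence relatives of the 10 genes give a comparison within gene families. Of 19 relatives tested, 1 rose (1.40% of all genes tested did), none fell and 18 did not pass. The median log2 fold change was 0.14, against 0.03 over all genes. In 9 of the 19 every blebbistatin library was above every vehicle library, where 18.0% of all genes tested showed this. Btg1, the closest relative of Btg2, was the one that rose, to 52.8 ± 3.33 TPM with blebbistatin, against 36.0 ± 0.456 TPM with vehicle (0.54, limma adjusted p = 0.0201). Leaving out blebbistatin 1 or 2 kept that call, and leaving out blebbistatin 3 (limma adjusted p = 0.103) or vehicle 1, 2 or 3 (0.103, 0.0834 and 0.0901) ended it. Tob1 came nearest to passing among the rest (0.41, limma adjusted p = 0.0511), with the groups apart. Ccng2, the relative of Ccng1, stood at 44.9 ± 3.47 TPM with blebbistatin and 39.4 ± 1.53 TPM with vehicle (0.18, limma adjusted p = 0.199), and Trp53inp2 at 4.87 ± 0.779 TPM with blebbistatin and 4.50 ± 0.628 TPM with vehicle (0.09, limma adjusted p = 0.732).

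Among 8636 other genes averaging 10 TPM or more, the profile over the 6 libraries most like that of Trp53inp1 was that of Plk2, with a root mean square difference of 0.136 on the log2(TPM + 1) scale after centring on the vehicle mean. Zfp365 (0.169) and 9230114K14Rik (0.179) followed. The profiles most like that of Mdm2 were those of Exoc4 (0.036), Ccser2 (0.041) and Med1 (0.044). Each had its highest level in blebbistatin 1 and its lowest in vehicle 1, as in Mdm2, which the choice by likeness favours.

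Markers of platelets were higher in the same libraries. Of 8 platelet markers 7 were tested and 4 rose (1.40% of all genes tested did), Ppbp, Pf4, Treml1 and Itga2b. Ppbp lost its call without blebbistatin 3 only, Pf4 without blebbistatin 3 or any vehicle library, and Treml1 and Itga2b without any library except blebbistatin 2. Gp9, Gp1ba and Gp5 (log2 fold change 1.03, 0.81 and 0.49) did not pass (limma adjusted p = 0.0639, 0.0862 and 0.164). All 7 were higher in every blebbistatin library than in any vehicle library, where 18.0% of all genes tested were. The summed level of the 8 was 115 to 134 TPM with blebbistatin, against 51.9 to 61.4 TPM with vehicle. None of the 8 was at 0 in all libraries. The summed level of 9 B cell markers was 15.7 to 21.1 TPM with blebbistatin, against 11.7 to 15.7 TPM with vehicle, so these sums were not apart. Cd79b was the main contributor, with overlap between the groups, and no B cell marker was called. The sums of 9 myeloid markers, of which Cst3 made up most (70.9 to 99.0 TPM with blebbistatin, 90.6 to 91.8 TPM with vehicle), 4 CD4 T cell markers (14.2 to 19.1 and 15.4 to 16.2 TPM) and 5 erythroid markers (3.0 to 3.6 and 3.0 to 4.2 TPM) overlapped between the groups, and 6 NK cell markers summed to 2.8 to 4.1 TPM with blebbistatin and 1.8 to 2.8 TPM with vehicle. Their part in the changes of the p53 genes was not tested. In bulk RNA a change in the share of a cell type and a change of RNA per cell cannot be told apart.

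**Figure D5:**
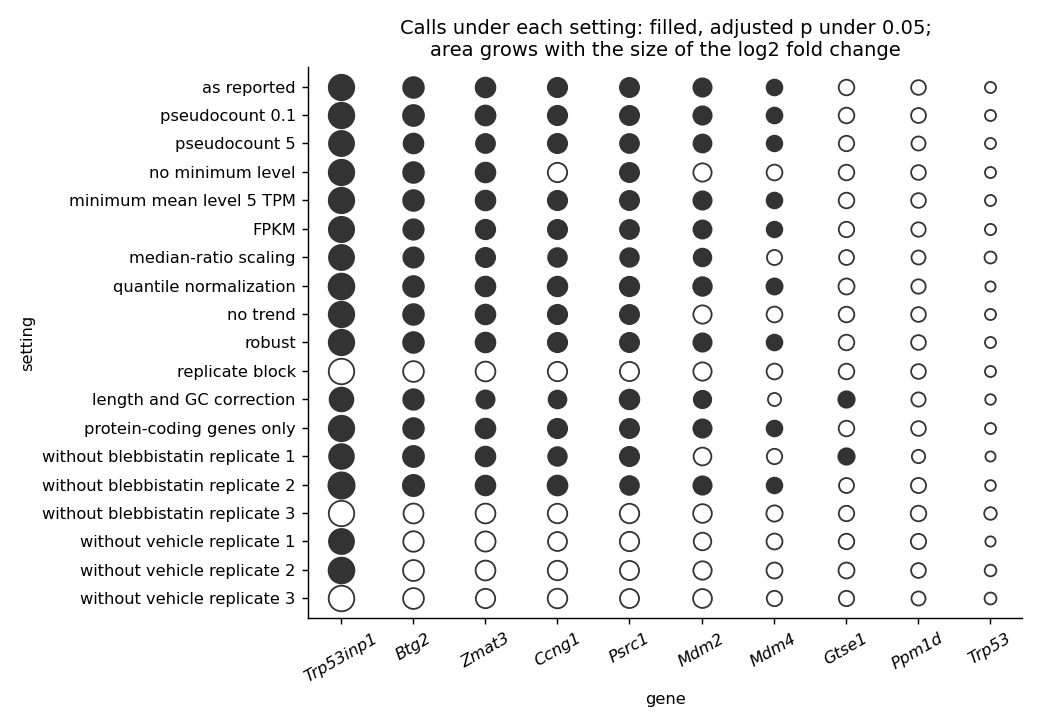
Calls for each gene (horizontal axis) under each setting (vertical axis), filled where the limma adjusted p was under 0.05, with the area growing with the size of the log2 fold change. As reported 7 circles are filled, and none is filled with the replicate block or without blebbistatin 3 or vehicle 3.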

How the data were processed

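Libraries of 3 blebbistatin and 3 vehicle samples were made with a TruSeq RNA kit that does not mark strand, per the labels' protocols. The submitters' processing notes list mm10 as the genome build and, as tools, StringTie 1.3.4, HISAT2 2.1.0 and DESeq2 1.22.2, without saying what each was used for. The TPM values and the FPKM values, both corrected for transcript length, were computed by the authors and used as deposited. The deposited coverage, a signal per gene, served only to infer depth, taking the commonest 300 aligned bases of low single-transcript genes as 1 fragment. Of the gene identifiers 98.9% matched GENCODE for GRCm38, where exons of the 10 genes overlapped no other gene.

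From these values log2(TPM + 1) was tested with limma 3.58.1 (R 4.3.3, trended empirical Bayes, Benjamini-Hochberg adjusted p under 0.05) in 13372 genes whose mean reached 1 TPM. The same test was also run on simulated data with independent noise in each library. Such data cannot show how far calls depend on single libraries. The log scale understates changes of low genes. The 10 genes, the other lists and the rule for named genes were chosen with earlier results of these data known. That rule took all 10 genes, up to 5 passing genes of each p53-related list (the most abundant where none passed), Cdkn1a, Bax, Cdkn2a, the 3 profiles most like Trp53inp1 and Mdm2, and marker genes that passed. Plk3, Pml, Stub1, the damage kinases, Tob1, Ccng2, Trp53inp2, Gp9, Gp1ba, Gp5, Cd79b, Cd68, Zbtb7b, Cst3 and the defining markers at low level were named after their values were seen. Alternatives were pseudocounts of 0.1 and 5, minimum levels, FPKM, 2 scalings, limma options, a replicate block, length and GC correction, protein-coding genes alone and each library left out. Plots used matplotlib 3.10.9.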

Additional observations from a re-analysis of the deposited data

How the results depend on the processing

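Of the 10 genes 7 were called, against 4 with no minimum level, 0 with the replicate block, and between 0 and 7 when a library was left out (0 without blebbistatin 3 or vehicle 3, 1 without vehicle 1 or 2). Over all genes 244 were called, against 49 with no minimum level, 160 with no trend, 0 with the replicate block and 441 after the length and GC correction, and between 3 and 1092 when a library was left out. Rises and falls numbered 187 and 57, with 293 and 148 after the length and GC correction, 130 and 67 with median-ratio scaling, and 497 and 595 without blebbistatin 2. Of the other p53 targets 8 were called, against 4 with no minimum level, 0 with the replicate block, and between 0 and 13 when a library was left out. The block used the replicate number. Same-numbered libraries deviated from their group means with correlations of 0.011, -0.037 and -0.034. Differently numbered libraries had correlations from -0.03 to 0.059. With group means of 3 libraries these values cannot decide whether same-numbered libraries were made together, which the labels do not say. With the block limma called 0 genes, while 2628 genes, 9 of the 10 among them, had an unadjusted p under 0.05. Trp53 changed sign without blebbistatin 1 (0.009) and vehicle 1 (0.0151), and with libraries left out it ranged from -0.1251 to 0.0151. The other 9 genes kept their direction under all 18 alternatives. Over these settings the log2 fold change ran from 0.95 to 1.20 for Trp53inp1, from 0.42 to 0.53 for Mdm2 and from 0.15 to 0.34 for Mdm4. The ratio of Mdm2 to Mdm4 ranged in log2 difference from 0.11 to 0.24 and that of Mdm2 to Trp53 from 0.42 to 0.64 with libraries left out. Why calls depended on single libraries was not tested. The number of libraries limits precision.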
